A study of Rattus norvegicus with 12 samples.

Results

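The genes described here are 10 feedback inhibitors, signalling components and adhesion molecules that are known to be induced through NF-kB when cells meet tumour necrosis factor (TNFα): Tnfaip3, Tnip1, Cyld, Zc3h12a, Map3k8, Traf1, Tnfaip2, Icam1, Vcam1 and Sdc4. They were chosen by symbol, and each had 1 row among the 22384 rows with values in the deposited expression table. All 10 passed the filter for testing, a mean FPKM, the abundance of fragments scaled to transcript length and library size, of at least 1 over the libraries, as did 11860 rows in all. The table covers 12 RNA-seq libraries of rat hepatic progenitor cells (HPCs), labelled day 13.5 of gestation, in 6 groups of 2. Cells were labelled wild type, Tnfrsf1α-/- or Tnfrsf1β-/-, and for every genotype 1 group was left untreated and the other received TNFα for 1 hour. The series title names an axis from TNF receptor type 2 through hnRNPK to YAP in liver cancer. Whether replicate libraries stem from different cultures or animals is not stated, so p-values measure only the spread between libraries, which may be no more than technical. The labels name no clone, deletion site or TNFα dose.

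TNFα binds a pair of receptors, encoded by Tnfrsf1a and Tnfrsf1b, that recruit TRAF adaptors and ubiquitin ligases. The resulting ubiquitin chains activate the IκB kinase complex, which frees NF-kB to enter the nucleus. NF-kB then induces its own brakes. A20, encoded by Tnfaip3, and the deubiquitinase encoded by Cyld remove or block signalling ubiquitin chains, ABIN-1, encoded by Tnip1, brings A20 to its substrates, and the RNase regnase-1, encoded by Zc3h12a, degrades inflammatory messenger RNAs. Map3k8 encodes the kinase that links these receptors to ERK, and Traf1 encodes an adaptor that modulates receptor complexes. Icam1 and Vcam1 encode ligands for leukocyte integrins, and in liver they are known for leukocyte capture during inflammation. Sdc4 encodes a heparan sulphate proteoglycan of focal adhesions, and Tnfaip2 a cytoplasmic protein linked to membrane protrusion.

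RefSeq promoters on the rat build GRCr8, from 250 bases before to 50 after the gene start, were found by symbol for 9 of the 10 genes, all but Cyld. Both strands were searched for the 10-letter kappaB consensus, the site that NF-kB dimers bind, and it occurred in 5 of these 9 promoters, those of Tnfaip3, Tnip1, Vcam1, Sdc4 and Map3k8. Among all 33465 RefSeq promoters of this length 7.52% held a match. The promoters of Tnfaip3, which had 3 matches, of Vcam1, which had 1, and of Icam1 are shown because Tnfaip3 and Vcam1 had the same order of group means and Icam1 another. That order was shared by Tnip1, which had matches, and Tnfaip2, which had none, while Sdc4 and Map3k8 had matches and other orders. A link between matches and levels was not tested. Each is written 5′ to 3′ on the strand of its gene, chr1:15543930-15544229 on the minus strand for Tnfaip3, chr2:206742734-206743033 on the minus strand for Vcam1 and chr8:27829595-27829894 on the plus strand for Icam1. Capitals mark kappaB matches and, in Icam1, the 9-letter run GGAAATTCC.
Tnfaip3: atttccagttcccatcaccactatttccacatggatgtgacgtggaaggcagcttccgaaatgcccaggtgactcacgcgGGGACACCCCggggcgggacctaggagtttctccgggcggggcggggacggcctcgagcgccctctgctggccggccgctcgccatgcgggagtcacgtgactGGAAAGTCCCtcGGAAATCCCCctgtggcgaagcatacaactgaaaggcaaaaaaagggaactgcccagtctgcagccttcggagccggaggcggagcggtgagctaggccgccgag
Vcam1: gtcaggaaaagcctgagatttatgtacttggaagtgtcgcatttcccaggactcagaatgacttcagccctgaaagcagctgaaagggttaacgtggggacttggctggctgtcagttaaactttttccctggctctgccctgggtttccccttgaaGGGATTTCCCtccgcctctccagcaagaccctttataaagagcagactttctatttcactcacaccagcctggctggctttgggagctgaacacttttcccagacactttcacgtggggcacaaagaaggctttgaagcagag
Icam1: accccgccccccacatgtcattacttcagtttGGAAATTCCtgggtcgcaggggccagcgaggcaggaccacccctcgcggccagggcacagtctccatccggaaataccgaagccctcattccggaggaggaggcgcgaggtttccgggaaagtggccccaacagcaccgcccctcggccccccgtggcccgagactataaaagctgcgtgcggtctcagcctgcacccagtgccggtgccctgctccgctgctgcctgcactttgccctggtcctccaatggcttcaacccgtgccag
This run is 1 letter shorter than the kappaB consensus and was added to the search after the promoters had been read. It lay at −218 to −210, with negative positions counted back from the start, and it occurred in 0.332% of all promoters and in 2 of the 9, Icam1 and, as part of its kappaB match, Map3k8.

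Shorter stretches show the matches of the other 3 genes, with the match again in capitals.
Tnip1: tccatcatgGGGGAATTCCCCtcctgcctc
Sdc4: gctttcccgGGGGAATTCCgggcggtgc
Map3k8: tgggaggacGGAATTTCCCatcgcgggg
The stretch in Tnip1 holds 3 overlapping matches from −86 to −75, the match in Sdc4 lies at −90 to −81, and that in Map3k8 covers the transcribed bases 1 to 10. The AP-1 motif TGANTCA was present in the promoters of Tnfaip3, Map3k8 and Traf1 and in 7.33% of all promoters. The TEAD motif GGAATG, the site of the factors that YAP works with, was present only in Icam1 among the 9 and in 14.2% of all promoters. The windows of Zc3h12a and Tnfaip2 held none of these motifs. A match is a run of letters and not a measured site of binding.

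Several facts about the libraries stand beside every result below. Tnfrsf1a was not lower under the Tnfrsf1α-/- label, at 5.65 to 6.13 on the log2(FPKM + 1) scale against 5.15 to 5.65 in wild type. Under the Tnfrsf1β-/- label Tnfrsf1b was listed at 0 in 4 of 4 libraries. It was at 2.58 and 2.43 in treated wild type, but listed at 0 in both untreated wild-type libraries too. The genotype labels are therefore used as labels. Of 15 progenitor and cholangiocyte markers, 11 were at 1 FPKM or more in treated wild type and 4 or 2 in the other groups, where Epcam and Afp were listed at 0. Their summed level was 43035 to 55911 FPKM in treated wild type and 373 to 36032 FPKM in the other 10 libraries. Among these 10, Krt7 was at 7.64 to 15.1 on the log2 scale. Sox9 was at 9.67 and 9.39 in treated Tnfrsf1α-/- libraries, against 9.15 and 9.19 in treated wild type. Of 15 hepatocyte markers, the summed level was 5402 to 5560 FPKM in treated wild type and 8.96 to 26.7 FPKM in the other 10 libraries. Of 14 mesenchymal and stellate markers, 13 were in the table and their sums spanned 2236 to 6776 FPKM, but their median level on the log2 scale was 0.12 and 0.13 in treated wild type against 3.26 to 7.19 elsewhere. Endothelial, macrophage and erythroid marker sums did not exceed 4.50, 16.2 and 7.96 FPKM in any library. The 2 treated libraries labelled Tnfrsf1α-/- were alike with a Spearman correlation of 0.782 over the tested genes, against 0.961 to 0.996 for the other pairs, and 1231 genes were over 2 log2 units apart between them. Untreated wild-type and treated Tnfrsf1β-/- libraries, which differ in both labels, correlated at 0.953 to 0.983 with each other, against 0.961 between the replicates of the former and 0.974 between those of the latter. An exchange of samples or labels between groups is possible and was not tested, so every contrast below is one between libraries as labelled. The summed FPKM of a library was 447554 to 472935 in the 4 untreated libraries with a knockout label and 1071530 to 2085916 in the other 8. The part of these differences in the results was not tested, and in bulk RNA fewer cells of a type and less RNA per cell cannot be told apart.

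Levels below are log2(FPKM + 1), given as replicate 1 and then replicate 2, and a level listed at 0 can be a failed estimate in FPKM tables. Tnfaip3 stood at 2.42 and 1.01 in untreated wild type, 4.84 and 4.88 in untreated Tnfrsf1α-/- and 5.26 and 5.23 in untreated Tnfrsf1β-/- libraries. After TNFα it stood at 0.49 and 0.39 in wild type, 3.76 and 3.33 under the Tnfrsf1α-/- label and 1.96 and 1.37 under the Tnfrsf1β-/- label. The 4 untreated libraries with a knockout label were thus above all others, and the 2 treated wild-type libraries below all others. In FPKM the span ran from 0.307 to 37.3. Tnip1, the partner of A20, was at 5.99 and 5.41 in untreated wild type, 6.24 and 6.34 in untreated Tnfrsf1α-/- and 6.60 and 6.53 in untreated Tnfrsf1β-/- libraries. With TNFα it was at 5.14 and 5.13, 5.20 and 6.20, and 5.50 and 5.55 in the same order of genotypes. Its whole range, 1.47 log2 units, was the narrowest of the 10 genes, and its 6 groups kept the order seen for Tnfaip3.

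Cyld was at 2.60 and 1.71 in untreated wild type, 4.01 and 3.78 in untreated Tnfrsf1α-/- and 3.77 and 3.80 in untreated Tnfrsf1β-/- libraries. Treated, it was at 1.19 and 1.02 in wild type, 4.34 and 2.39 under the Tnfrsf1α-/- label and 2.25 and 1.70 under the Tnfrsf1β-/- label. The single highest Cyld value was thus a treated Tnfrsf1α-/- library whose replicate lay 1.94 lower. Zc3h12a was at 4.40 and 3.92 in untreated wild type, 5.37 and 5.42 in untreated Tnfrsf1α-/- and 6.01 and 6.10 in untreated Tnfrsf1β-/- libraries. Its treated levels were 0.93 and 0.92 in wild type, 3.95 and 4.0 under the Tnfrsf1α-/- label and 3.98 and 4.47 under the Tnfrsf1β-/- label. Both treated wild-type libraries were thus far below the next lowest library, at 3.92, and no replicate pair was more than 0.49 apart.

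The kinase gene Map3k8 was at 1.24 and 1.35 in untreated wild type, 3.45 and 3.31 in untreated Tnfrsf1α-/- and 3.24 and 3.29 in untreated Tnfrsf1β-/- libraries. In treated wild type it was listed at 0 in both libraries, and it was at 1.37 and 0.33 under the Tnfrsf1α-/- label and 1.43 and 1.33 under the Tnfrsf1β-/- label. The untreated libraries with a knockout label were again above all others. The adaptor gene Traf1 had another pattern. It was at 0.57 or below in the 6 untreated libraries and at 0.15 and 0.17 in treated Tnfrsf1β-/- libraries, against 2.74 and 2.51 in treated wild type. The treated libraries labelled Tnfrsf1α-/- were at 0.24 and 4.0, the largest gap between replicates of any of the 10 genes. The same replicate 2 held Tnfrsf1b at 4.09, while replicate 1 had it listed at 0. Tnfaip2 was at 6.05 and 5.18 in untreated wild type, 6.29 and 6.38 in untreated Tnfrsf1α-/- and 6.53 and 6.49 in untreated Tnfrsf1β-/- libraries. After TNFα it was at 2.41 and 2.36 in wild type, 6.0 and 5.83 under the Tnfrsf1α-/- label and 5.77 and 5.26 under the Tnfrsf1β-/- label. Only the treated wild-type pair left the band between 5.18 and 6.53.

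Among the adhesion genes, Icam1 was at 4.74 and 4.15 in untreated wild type, 6.31 and 6.41 in untreated Tnfrsf1α-/- and 6.38 and 6.36 in untreated Tnfrsf1β-/- libraries. Treated levels were 6.47 and 5.96 in wild type, 7.60 and 5.91 under the Tnfrsf1α-/- label and 4.57 and 4.60 under the Tnfrsf1β-/- label. Icam1 was thus high in 8 libraries and low in untreated wild type and treated Tnfrsf1β-/- libraries. Vcam1 was at 1.27 and 0.80 in untreated wild type, 2.27 and 2.17 in untreated Tnfrsf1α-/- and 3.12 and 3.12 in untreated Tnfrsf1β-/- libraries. With TNFα it was at 0.01 and 0 in wild type, 3.05 and 0 under the Tnfrsf1α-/- label and 0.72 and 0.16 under the Tnfrsf1β-/- label. The highest treated value and a value listed at 0 came from the same group, so the mean of that group stands for neither library. Sdc4 was the most abundant of the 10 in untreated cells, at 6.52 and 6.55 in wild type, 7.64 and 7.56 in Tnfrsf1α-/- and 7.65 and 7.70 in Tnfrsf1β-/- libraries. It was at 4.26 and 4.02 in treated wild type, 6.87 and 5.40 in treated Tnfrsf1α-/- and 6.39 and 6.27 in treated Tnfrsf1β-/- libraries.

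**Figure D1:**
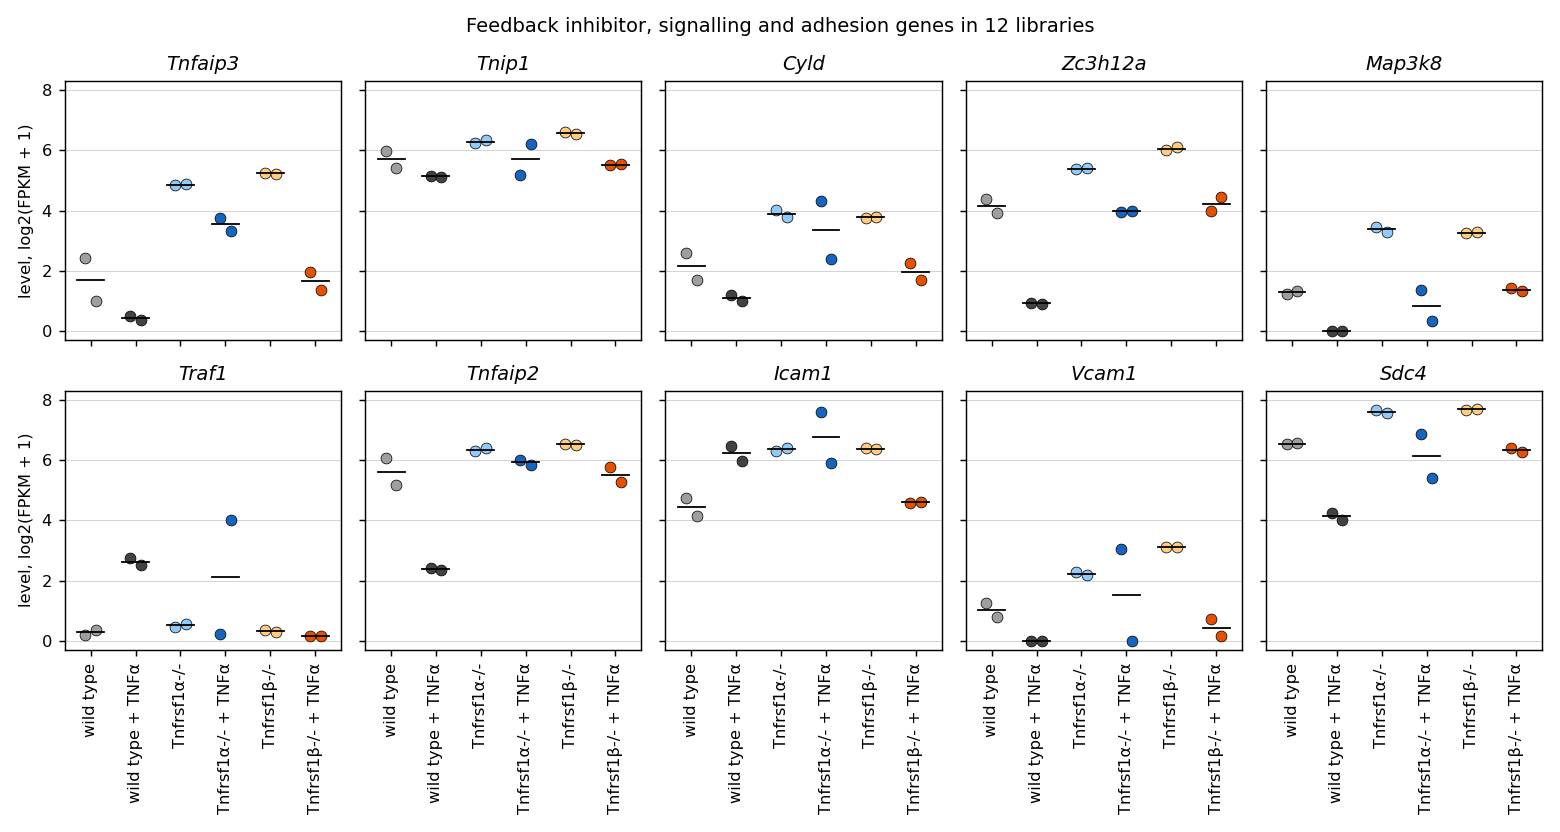
Level of each of the 10 genes, as log2(FPKM + 1), in the 12 libraries. Points are single libraries, lines the means of the 2 libraries of a group, and genotypes are as labelled. Treated wild type was the lowest group for 8 genes, all but Icam1 and Traf1.

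In 8 of the 10 genes the 2 untreated groups with a knockout label had the highest means, the exceptions being Icam1 and Traf1. For Tnfaip3, Tnip1, Zc3h12a, Tnfaip2, Sdc4 and Map3k8 all 4 of these libraries were above the other 8, which held for 20.3% of all tested genes. Both treated wild-type libraries were below the other 10 for those 6 genes and Cyld, which held for 15.4% of all tested genes. A moderated F test over the 6 group means (limma on log2(FPKM + 1), Benjamini-Hochberg adjustment over all tested genes) passed at an adjusted p of 0.05 for 9 of the 10 genes, all but Traf1, and for 83.9% of all genes.

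The first comparison set wild-type libraries labelled as treated with TNFα for 1 hour against untreated ones. Icam1 rose by 1.77 (SE 0.47, n = 2 and 2 libraries), a 3.41-fold change on the log2(FPKM + 1) scale, which understates changes of low genes. Zc3h12a fell by 3.24 (SE 0.23), Tnfaip2 fell by 3.23 (SE 0.29), Sdc4 fell by 2.40 (SE 0.39) and Tnfaip3 fell by 1.28 (SE 0.42). Map3k8 fell from its low untreated level to values listed at 0, so no fold is given. In limma the adjusted p was 0.0151 for Icam1, 5.93e-06 for Zc3h12a, 2.78e-05 for Tnfaip2, 0.00125 for Sdc4, 0.0361 for Tnfaip3 and 0.00754 for Map3k8. Thus 1 gene was called higher and 5 lower, where 31.9% of all tested genes were called higher and 15.3% lower. The median difference was −1.16 over the 10 genes and 0.32 over all tested genes. Traf1 differed by 2.35 (SE 0.92) at a limma adjusted p of 0.065 and was not called. Tnip1 (−0.56, SE 0.32), Cyld (−1.05, SE 0.57) and Vcam1 (−1.03, SE 0.77) did not pass either.

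The call for Icam1 in wild type was lost without untreated replicate 2, without treated replicate 1 and after quantile normalization (limma adjusted p = 0.0839). It was also lost without all 4 untreated libraries with a knockout label, an alternative chosen after seeing the data. That for Tnfaip3 was lost without any 1 of 7 libraries, namely untreated replicate 1, either treated one, or any of the 4 untreated libraries with a knockout label. Leaving out those 4 together also ended it, as did testing without the filter on low values. In a limma fit of only the groups compared its adjusted p was 0.101. Zc3h12a, Tnfaip2, Sdc4 and Map3k8 passed in every alternative that was run. Without both treated libraries labelled Tnfrsf1α-/-, all 10 genes passed, as did 7644 of all 11860 tested genes in place of 5601. Of all calls in this comparison 67.6% were higher as deposited, 49.3% with median-ratio scaling and 45.6% when quantile-normalized, and the median of all genes was −0.04 after the former and −0.06 after the latter.

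Under the Tnfrsf1α-/- label Map3k8, Sdc4 and Zc3h12a were lower in treated than in untreated libraries. With both treated libraries in the fit 0 of the 10 genes were higher, also at an unadjusted p under 0.05. Map3k8 fell by 2.53 (SE 0.30, adjusted p = 0.00045), Sdc4 fell by 1.46 (SE 0.39, adjusted p = 0.0362) and Zc3h12a fell by 1.42 (SE 0.23, adjusted p = 0.00385), all in limma. These were 3 genes called lower and 0 higher, with 7.5% of all genes called lower and 9.81% higher, and medians of −0.64 over the 10 genes and −0.02 over all. Tnfaip3 differed by −1.31 (SE 0.42, adjusted p = 0.0649), and the other 6 did not pass either. In a limma fit of these 2 groups alone 0 of the 10 genes passed, with 3 at an unadjusted p under 0.05, and 570 of all genes passed in place of 2052. The call for Sdc4 was lost without any 1 of 10 libraries, all but the treated Tnfrsf1α-/- pair, at adjusted p from 0.0514 to 0.19. Without treated replicate 1, 6 genes were lower and 1 higher, Traf1 (3.49, adjusted p = 1.64e-07), and 7001 of all genes passed. Without treated replicate 2, 4 were lower and 1 higher, Icam1 (1.24, adjusted p = 0.0192). Of all calls 56.7% were higher as deposited, 50.5% with median-ratio scaling and 34.8% when quantile-normalized.

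Under the Tnfrsf1β-/- label 9 of the 10 genes fell after TNFα, all but Traf1, and 0 rose, where 42.9% of all genes were called lower and 17.6% higher. Tnfaip3 fell by 3.58 (SE 0.42, 11.9-fold, adjusted p = 0.000346), Vcam1 fell by 2.68 (SE 0.77, adjusted p = 0.0157) and Map3k8 fell by 1.89 (SE 0.30, adjusted p = 0.00105) in limma. Zc3h12a fell by 1.83 (SE 0.23, adjusted p = 0.000442), Cyld fell by 1.81 (SE 0.57, adjusted p = 0.0223) and Icam1 fell by 1.78 (SE 0.47, adjusted p = 0.011). Sdc4 fell by 1.34 (SE 0.39), Tnip1 fell by 1.03 (SE 0.32) and Tnfaip2 fell by 1.00 (SE 0.29), with limma adjusted p from 0.0157 to 0.0205. The medians were −1.80 over the 10 genes and −0.66 over all tested genes, and median-ratio scaling brought the latter to −0.03. After that scaling 4 of the 10 genes were still lower, Tnfaip3, Zc3h12a, Vcam1 and Map3k8. Over all 11860 tested genes it gave 6458 calls, higher and lower together. The share of all calls that were higher was 29.1% as deposited, 50.9% with median-ratio scaling and 44.8% when quantile-normalized.

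Tnfaip3, Zc3h12a and Map3k8 kept their calls under the Tnfrsf1β-/- label in every alternative run. Each of the other 6 was lost without treated replicate 2 and without untreated replicate 1, and all of these but Icam1 also without untreated replicate 2. Tnip1 was lost without treated replicate 1 too. Adjusted p in these fits spanned 0.0511 to 0.126. With 1 library left in a group, that library is assumed to vary like those of the other groups.

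**Figure D2:**
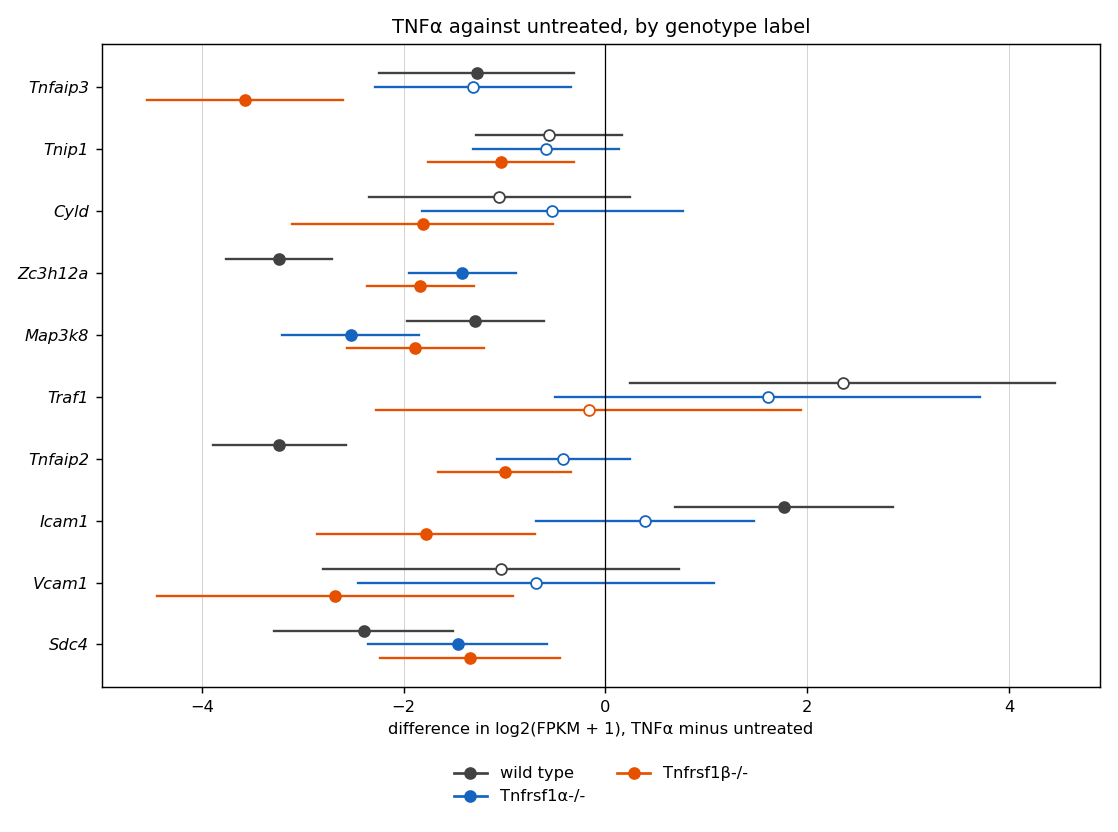
Difference between treated and untreated libraries in log2(FPKM + 1) for each of the 10 genes, by genotype label. Bars are 95% intervals from limma and filled points passed an adjusted p of 0.05. Icam1 lies to the right of 0 in wild type and to the left under the Tnfrsf1β-/- label.

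The response to TNFα was then compared between genotypes by interaction terms, which share the wild-type libraries. Zc3h12a and Tnfaip2 fell less under both knockout labels than in wild type. For the Tnfrsf1α-/- label the difference of responses was 1.82 (SE 0.33, adjusted p = 0.0036) for Zc3h12a and 2.81 (SE 0.41, adjusted p = 0.00104) for Tnfaip2 in limma. For the Tnfrsf1β-/- label it was 1.40 (SE 0.33, adjusted p = 0.00566) and 2.23 (SE 0.41, adjusted p = 0.00165). Icam1, which rose in wild type and fell under the Tnfrsf1β-/- label, differed by −3.55 (SE 0.67, adjusted p = 0.00194), and Tnfaip3 differed by −2.30 (SE 0.60, adjusted p = 0.00945). Thus 2 of the 10 genes were called higher for the Tnfrsf1α-/- label and 0 lower, against 12.8% and 22% of all genes. For the Tnfrsf1β-/- label 2 were called higher and 2 lower, against 17.3% and 47.3% of all genes. The call for Tnfaip3 was lost with a pseudocount of 0.1 (adjusted p = 0.0971), and the other 5 held in all alternatives run. Without both treated Tnfrsf1α-/- libraries, 8 of the 10 genes passed for the Tnfrsf1β-/- label, as did 9290 of all 11860 tested genes in place of 7654. For the Tnfrsf1α-/- label the directions of Traf1 and Vcam1 depended on which of these libraries was left out. Traf1, at −0.74 with both libraries, was at 1.14 without replicate 1 (adjusted p = 0.000676) and at −2.62 without replicate 2 (adjusted p = 2.1e-06). Vcam1, at 0.34 with both, was at −1.19 (adjusted p = 0.0124) and 1.86 (adjusted p = 0.0021). Of all calls 36.9% were higher for the Tnfrsf1α-/- label and 26.8% for the Tnfrsf1β-/- label as deposited, 52.5% and 50.2% with median-ratio scaling, and 48% and 47.5% when quantile-normalized.

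Without TNFα, Tnfaip3, Cyld, Zc3h12a, Map3k8, Icam1 and Sdc4 were higher under both knockout labels than in wild type. Against untreated wild type, Tnfaip3 rose by 3.14 (SE 0.42, adjusted p = 0.000672) under the Tnfrsf1α-/- label and by 3.53 (SE 0.42, adjusted p = 0.000426) under the Tnfrsf1β-/- label, changes of 8.84-fold and 11.5-fold in limma on the log2(FPKM + 1) scale. Map3k8 was higher by 2.08 and 1.97 (SE 0.30 for both), Icam1 by 1.92 and 1.93 (SE 0.47), Cyld by 1.74 and 1.63 (SE 0.57), Zc3h12a by 1.24 and 1.90 (SE 0.23), and Sdc4 by 1.06 and 1.14 (SE 0.39), all past the threshold. Vcam1 by 2.09 (SE 0.77), Tnfaip2 by 0.90 (SE 0.29) and Tnip1 by 0.86 (SE 0.32) were higher under the Tnfrsf1β-/- label. In all, 6 genes were higher under the Tnfrsf1α-/- label, where 36.7% of all genes were, and 9 under the Tnfrsf1β-/- label, where 36.9% of all genes were. In limma 0 of the 10 were lower, also at an unadjusted p under 0.05, where 17% and 17.5% of all genes were. The medians over the 10 genes were 1.21 and 1.77, and over all genes 0.48 and 0.47.

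These untreated differences moved with the scaling and with the library left out. After median-ratio scaling, which brought the median of all genes to 0.03 in both comparisons, 3 of the 10 genes were higher under the Tnfrsf1α-/- label (Tnfaip3, Icam1, Map3k8) and 4 under the Tnfrsf1β-/- label (the same 3 and Zc3h12a). Of all calls 68.3% and 67.8% were higher as deposited, 51% and 51.3% with median-ratio scaling and 54.1% and 54% when quantile-normalized. Tnfaip3 and Map3k8 held under both labels in every alternative run, as did Zc3h12a under the Tnfrsf1β-/- label. Both Icam1 calls were lost without untreated wild-type replicate 2 (adjusted p = 0.069 and 0.0683). Without that library, 3 of the 10 genes passed under each label. Sdc4 under both labels and Vcam1 under the Tnfrsf1β-/- label lost the call without any 1 of 10 libraries, all but the treated Tnfrsf1α-/- pair, at adjusted p from 0.0512 to 0.196. Tnip1 and Cyld under the Tnfrsf1β-/- label lost it without any of these but untreated wild-type replicate 1, at adjusted p from 0.0512 to 0.26. Cyld under the Tnfrsf1α-/- label lost it without any of 5 libraries, the untreated Tnfrsf1α-/- and treated wild-type pairs and untreated wild-type replicate 2, at adjusted p from 0.0567 to 0.179. Tnfaip2 lost it without either untreated Tnfrsf1β-/- library or untreated wild-type replicate 2, at adjusted p from 0.0999 to 0.172.

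With TNFα, Zc3h12a, Tnfaip2 and Sdc4 were higher under both knockout labels than in wild type. For the Tnfrsf1α-/- label the differences in limma were 3.05 (SE 0.23, adjusted p = 1.29e-05), 3.54 (SE 0.29, adjusted p = 2.11e-05) and 2.0 (SE 0.39, adjusted p = 0.0036). For the Tnfrsf1β-/- label they were 3.30 (SE 0.23, adjusted p = 5.09e-06), 3.13 (SE 0.29, adjusted p = 3.37e-05) and 2.19 (SE 0.39, adjusted p = 0.00183). Tnfaip3 was higher by 3.11 (SE 0.42) and 1.23 (SE 0.42), and Map3k8, listed at 0 in treated wild type, was higher in both (adjusted p = 0.045 and 0.00497). Cyld was higher by 2.26 (SE 0.57) under the Tnfrsf1α-/- label. Icam1 was lower by 1.63 in size under the Tnfrsf1β-/- label (log2 difference −1.63, SE 0.47, adjusted p = 0.0201), and Traf1 differed by −2.47 (SE 0.92, adjusted p = 0.0518). Hence 6 genes were higher and 0 lower under the Tnfrsf1α-/- label, against 22.7% and 22.4% of all genes. Under the Tnfrsf1β-/- label 5 were higher and 1 lower, against 14.7% and 36.3% of all genes.

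Medians over the 10 genes in the treated comparisons were 1.76 and 1.05, and over all genes 0.08 and −0.41. Median-ratio scaling brought the median of all genes for the Tnfrsf1β-/- label to 0.14 and the share of calls that were higher from 28.8% to 54.6%, with 53% after quantile normalization. Icam1 was not called after either scaling (adjusted p = 0.112 and 0.148), nor without any of the 4 treated libraries compared (adjusted p from 0.0537 to 0.132). Tnfaip3 under the Tnfrsf1β-/- label lost the call without any 1 of 8 libraries, the 4 untreated ones with a knockout label and the 4 treated ones compared, at adjusted p from 0.0578 to 0.189. Map3k8 under the Tnfrsf1α-/- label lost it without any 1 of 11 libraries, all but treated Tnfrsf1α-/- replicate 2, at adjusted p from 0.0572 to 0.154. Cyld lost it without either treated wild-type library (adjusted p = 0.0598 and 0.081). In a fit of the 2 treated groups alone, 3 genes passed for the Tnfrsf1α-/- label. For that label and all 12 libraries Traf1 differed by −0.51 (not called), but by 1.37 without treated Tnfrsf1α-/- replicate 1 (adjusted p = 4.88e-05) and by −2.39 without replicate 2 (adjusted p = 6.29e-07).

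**Figure D3:**
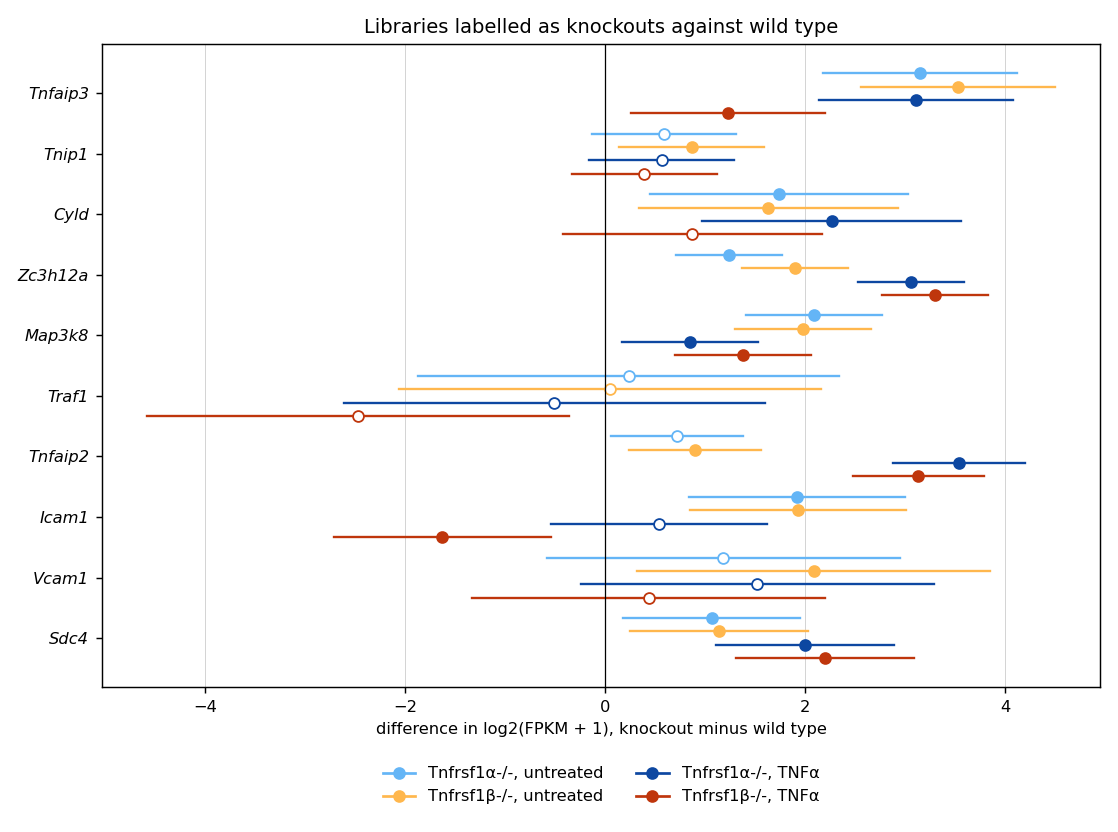
Difference between libraries labelled as knockouts and wild type in log2(FPKM + 1) for each of the 10 genes, untreated and with TNFα. Bars are 95% intervals from limma and filled points passed an adjusted p of 0.05. All filled points but that of Icam1 in treated Tnfrsf1β-/- libraries lie to the right of 0.

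Neighbouring groups in the order of levels were compared in the same fit. Between treated Tnfrsf1β-/- and untreated wild-type libraries 0 of the 10 genes passed, with absolute differences of 0.05 to 0.60. At an unadjusted p under 0.05 there were 0, and 0.312% of all genes were called in limma. Between untreated Tnfrsf1α-/- and untreated Tnfrsf1β-/- libraries 0 of the 10 passed too, with absolute differences of 0.01 to 0.90. There 1 gene was at an unadjusted p under 0.05, and 0.0337% of all genes were called. A p that misses the threshold does not show that the levels were the same. These tests use a spread estimated over all 12 libraries, the unlike treated Tnfrsf1α-/- pair included, and not that of the groups compared. Differences wider than the gap between replicates can thus fail to pass. An example is Vcam1 in these untreated libraries, at 2.27 and 2.17 against 3.12 and 3.12. For Zc3h12a the steps from treated wild type to the next group (3.05, adjusted p = 1.29e-05) and from treated Tnfrsf1β-/- to untreated Tnfrsf1α-/- libraries (1.17, adjusted p = 0.00279) passed in limma. The other steps did not pass. For Tnfaip3 the step from untreated wild type up to treated Tnfrsf1α-/- libraries passed (1.83, adjusted p = 0.0138), as did the lowest step, from treated wild type to treated Tnfrsf1β-/- libraries (1.23, adjusted p = 0.0392). For Icam1 the only step that passed was from treated Tnfrsf1β-/- up to treated wild-type libraries (1.63, adjusted p = 0.0201). As given above, that call was lost after either scaling and without any of the 4 libraries compared. For Tnfaip2 only the step up from treated wild type passed (3.13, adjusted p = 3.37e-05). For Sdc4 the lowest step, from treated wild type to treated Tnfrsf1α-/- libraries, passed (2.0, adjusted p = 0.0036), as did that from untreated wild type to untreated Tnfrsf1α-/- libraries (1.06, adjusted p = 0.0458). For Map3k8 the step from treated to untreated Tnfrsf1β-/- libraries passed (1.89, adjusted p = 0.00105), as did the lowest one, from levels listed at 0 (adjusted p = 0.045). In Tnip1, Cyld, Vcam1 and Traf1 no step between neighbours passed.

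Across the 12 libraries, which share their groups, the 10 genes moved together to different extents, given here as a description. Pearson correlations of the log2 levels were 0.952 between Zc3h12a and Tnfaip2 and between Zc3h12a and Sdc4, 0.935 between Tnfaip3 and Cyld, and 0.924 between Vcam1 and Cyld. Icam1 stood apart, at 0.02 with Zc3h12a and 0.52 with Tnfaip3, its highest value being 0.57 with Cyld. Traf1 was negative with all genes but Icam1, at −0.75 with Sdc4. Outside the 10, the genes most like Tnfaip3 over the 12 libraries were LOC100360218 and Ptpn13 (0.994 each) and Clec2d (0.993). Most like Icam1 were Atp6v1a (0.983), Tsn (0.977) and Nceh1 (0.971). Most like Vcam1 were Osbpl3 (0.983), Fam46c (0.979) and Ogn (0.979). Most like Zc3h12a were Ubtd2 and Oas1b (0.981 each) and Zbtb7c (0.979).

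Other genes of the pathway were counted in 5 lists and are set beside the shares of all tested genes called. Of 12 tested partners and relatives of A20 and regnase-1, 11 were higher in untreated libraries of each knockout label than in wild type, and 11 fell after TNFα under the Tnfrsf1β-/- label in limma. Over all genes 36.7% and 36.9% were higher in those untreated comparisons, and 42.9% fell under the Tnfrsf1β-/- label. Optn, which encodes a ubiquitin-binding protein related to the A20 partners, was at 1.58 and 1.48 in untreated wild type, 4.45 and 4.30 in untreated Tnfrsf1α-/- and 3.99 and 4.25 in untreated Tnfrsf1β-/- libraries. In treated Tnfrsf1β-/- libraries it was at 1.33 and 1.45, a fall of 2.73 (SE 0.30, adjusted p = 0.000264 in limma). Rc3h1, which encodes the RNA-binding protein roquin-1 that shares targets with regnase-1, fell by 2.69 (SE 0.27, adjusted p = 0.000169) there. In wild type 1 of the 12 rose, Malt1, by 0.88 (SE 0.28, limma adjusted p = 0.0319), and 0 fell, with 1 lower at an unadjusted p under 0.05. Of all genes 31.9% were called higher there and 15.3% lower. Malt1 encodes a protease that cleaves the A20 and regnase-1 proteins, which were not measured here. Under the Tnfrsf1α-/- label 1 of the 12 fell, Tnip3, which encodes a relative of ABIN-1, where 7.5% of all genes were called lower. At an unadjusted p under 0.05, 9 of the 12 were lower, and the share of all genes at that looser threshold is not given here.

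Of 10 tested NF-kB subunits and IkB proteins, 7 were higher and 1 lower in untreated Tnfrsf1α-/- libraries, and 8 higher and 1 lower in untreated Tnfrsf1β-/- libraries. Over all genes 36.7% were higher and 17% lower in the former comparison, and 36.9% and 17.5% in the latter. With TNFα, 2 rose and 2 fell in wild type, 3 fell under the Tnfrsf1α-/- label and 8 fell under the Tnfrsf1β-/- label. Of all genes 31.9% were called higher and 15.3% lower in wild type. Those shares were 9.81% and 7.5% under the Tnfrsf1α-/- label, and 17.6% and 42.9% under the Tnfrsf1β-/- label. Nfkb2, a precursor subunit of the noncanonical pathway, rose by 2.24 (SE 0.31, adjusted p = 0.000455) in wild type, from 3.33 and 2.89 to 5.35 and 5.35. It fell by 1.59 (SE 0.31, adjusted p = 0.00248) under the Tnfrsf1β-/- label, where its treated levels were 3.01 and 3.19. Of 20 genes of the ubiquitin machinery and kinases near the receptor, 7 rose and 3 fell in wild type, near the shares of all genes. Under the Tnfrsf1β-/- label 4 rose and 12 fell, and under the Tnfrsf1α-/- label 0 changed. Beside that 0 from limma, 3 genes were higher at an unadjusted p under 0.05, Tradd, Otulin and Sharpin. Untreated, 12 were higher and 2 lower in Tnfrsf1α-/- and 11 higher and 2 lower in Tnfrsf1β-/- libraries.

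Of 11 genes of the kinase cascade that Map3k8 feeds, and its parallel arms, 3 rose and 2 fell in wild type, 0 changed under the Tnfrsf1α-/- label (2 at an unadjusted p under 0.05, Map2k6 and Map2k2), and 1 rose and 6 fell under the Tnfrsf1β-/- label. The shares of all genes called higher and lower were 31.9% and 15.3% in wild type. They were 9.81% and 7.5% under the Tnfrsf1α-/- label, and 17.6% and 42.9% under the Tnfrsf1β-/- label. Map2k6, a kinase of the p38 arm, was at 0.09 and 0 in untreated and 3.41 and 3.08 in treated wild type, and at 1.22 or below in the other 8 libraries. Untreated, 5 of the cascade genes were higher and 1 lower in Tnfrsf1α-/- and 6 higher and 1 lower in Tnfrsf1β-/- libraries. Over all genes 36.7% were higher and 17% lower in the former, and 36.9% and 17.5% in the latter. Of 11 tested adhesion molecules and ligands, 6 rose and 0 fell in wild type, 4 rose and 0 fell under the Tnfrsf1α-/- label, and 2 rose and 2 fell under the Tnfrsf1β-/- label. Mcam, a cell adhesion molecule of the immunoglobulin superfamily, was at 0.94 and 0.54 in untreated wild type and 6.54 and 7.0 after TNFα. It was at 2.67 and 2.84 in untreated and 10.3 and 10.2 in treated Tnfrsf1α-/- libraries, and at 2.29 and 2.43 in untreated and 0.42 and 0.62 in treated Tnfrsf1β-/- libraries. Untreated, 2 of these 11 genes were higher and 2 lower under the Tnfrsf1α-/- label, and 1 higher and 2 lower under the Tnfrsf1β-/- label.

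**Figure D4:**
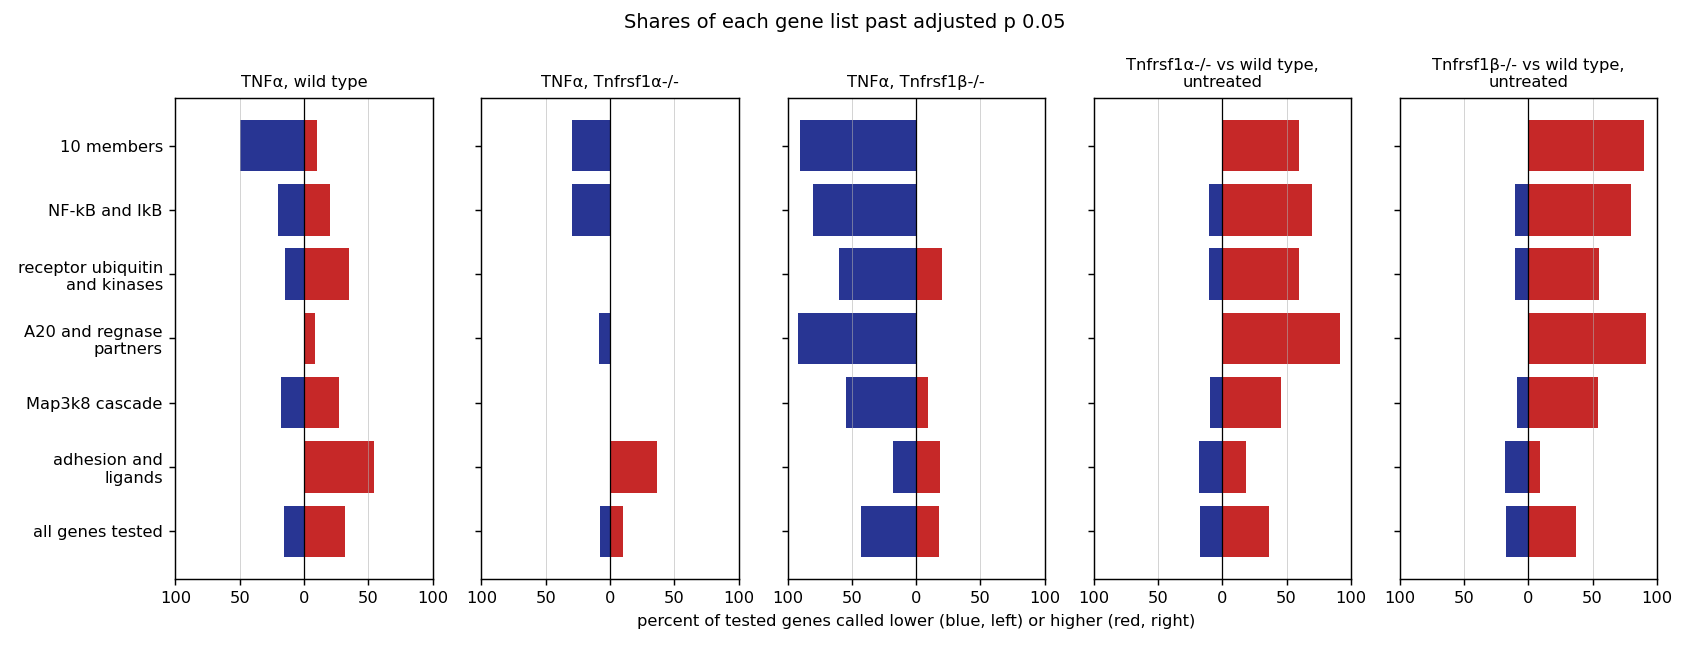
Percent of the tested genes of each list called lower (left, blue) or higher (right, red) in 5 comparisons, with the 10 genes at the top and all 11860 tested genes at the bottom. Bars start at 0 and calls are at an adjusted p of 0.05 in limma. Under the Tnfrsf1β-/- label after TNFα, 9 of the 10 genes and 11 of the 12 A20 and regnase-1 partners are on the left.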

How the data were processed

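Total RNA was extracted with Trizol and made into libraries with an Illumina TruSeq kit, per the labels' protocols. For the aligner, counter, genome build and annotation, a name is not given in the sources used here. In the 1 deposited table, values are on a log2 scale, with 22730 lines of which 346 were empty. From the values the scale is log2(FPKM + 1): in each library 72.8 to 80.7% of values under 1 gave an FPKM within 0.002 millionths of a number with 6 decimals, against 0.179 to 0.526% if read as natural logs. Depth per library is unknown, so no counting error can be given. Lines sharing a symbol numbered 1835, none of them a gene described here.

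Values were analysed with limma 3.58.1 in R 4.3.3, with 6 group means over all 12 libraries, empirical Bayes moderation with an intensity trend, two-sided tests and Benjamini-Hochberg adjustment over the 11860 genes with a mean of at least 1 FPKM. An adjusted p under 0.05 was called. There were 9 contrasts, an F test and pairwise contrasts. The procedure was tested on simulated data. The genes, 5 pathway lists and 6 marker lists were chosen with earlier results of these data known. From each pathway list up to 3 genes with the smallest p in a described contrast were named, and for Tnfaip3, Icam1, Vcam1 and Zc3h12a the 3 genes with the highest Pearson correlation. Median-ratio scaling divides each library by its median ratio to the geometric mean. Alternatives were another pseudocount, filter, normalization, trend, sample choice, a replicate block and leaving out libraries; their effects are in the closing section. All 12 libraries were used.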

Additional observations from a re-analysis of the deposited data

Results flagged for a closer look

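The TNFα response differed between genotype labels, by the interaction term in limma, in 6 of the 20 tests made on the 10 genes. Of all tested genes 12.8% were called higher and 22% lower for the Tnfrsf1α-/- label, and 17.3% and 47.3% for the Tnfrsf1β-/- label. Between the Tnfrsf1α-/- label and wild type the difference was 1.82 for Zc3h12a and 2.81 for Tnfaip2, which both fell further in wild type. Between the Tnfrsf1β-/- label and wild type it was 1.40 for Zc3h12a and 2.23 for Tnfaip2. In the same comparison it was −2.30 for Tnfaip3, which fell further under the Tnfrsf1β-/- label, and −3.55 for Icam1, which rose in wild type and fell under that label. The call for Tnfaip3 was lost with a pseudocount of 0.1 (limma adjusted p = 0.0971). Its untreated mean was 1.72 in wild type and 5.24 under the Tnfrsf1β-/- label, and a level on this scale cannot fall below 0. Both sets of tests use the same wild-type libraries. Treated wild type was also the group with summed hepatocyte markers at 5402 to 5560 FPKM. It had 11 progenitor markers at 1 FPKM or more, against 4 or 2 in the other groups. The part of this in the differences was not tested.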

How the results depend on the processing

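Over the 10 genes and 9 contrasts, 1606 of 1903 alternative values kept their direction and their side of the threshold, 178 lost a call, 85 gained one, 3 changed direction with a call and 31 changed direction without one. The 3 arose without treated Tnfrsf1α-/- replicate 1, for Traf1 (difference of responses for that label 1.14, treated comparison 1.37) and Vcam1 (difference of responses −1.19). Of the 51 calls, 24 held in every alternative run. Counts of the 10 genes that moved by over 1.5 times were as follows. In wild type, TNFα gave 10 calls without both treated Tnfrsf1α-/- libraries, with 7644 of all genes. Under the Tnfrsf1α-/- label TNFα gave 0 in a fit of the groups compared only and 6 after quantile normalization, which called 570 and 3789 of all genes. Under the Tnfrsf1β-/- label it gave 4 after median-ratio scaling, with 6458 of all genes. The difference of responses for the Tnfrsf1β-/- label gave 8 with only the groups compared, with 8997 of all genes. It gave 8 without both treated Tnfrsf1α-/- libraries, with 9290 of all genes. For the Tnfrsf1α-/- label that difference was called in 2751 of all genes with only the groups compared. Treated Tnfrsf1α-/- against wild type gave 3 with only the groups compared, with 2111 of all genes. The untreated comparison gave 3 for the Tnfrsf1α-/- label after median-ratio scaling, and for the Tnfrsf1β-/- label 4 after median-ratio scaling, 4 without a filter on low values and 5 without the 2 treated wild-type libraries, an alternative chosen after seeing the data. Leaving out 1 library gave 4 to 10 calls for TNFα in wild type, 2 to 7 under the Tnfrsf1α-/- label and 3 to 9 under the Tnfrsf1β-/- label. It gave 2 to 7 and 4 to 8 for the differences of responses, 3 to 9 for both untreated comparisons, 4 to 9 and 4 to 8 for the treated ones, and 7 to 10 for the F test. Over all genes, it gave 750 to 7001 calls for TNFα under the Tnfrsf1α-/- label, 2392 to 7125 for that label's difference of responses, 3520 to 7646 for TNFα in wild type, 3081 to 7716 and 3937 to 7816 for the treated comparisons, and 4179 to 8128 and 4198 to 8174 for the untreated ones. Beyond the construction of each alternative, the cause was not tested. Whether replicate numbers mark paired samples is not stated. Deviations of same-numbered libraries correlated at −0.169 to 0.244 (median 0.149), with 9 of 15 group pairs over 0.1, so the criterion for treating them as paired, every pair over 0.1, was not met and not every library correlated best with its own number. With the replicate block, counts in the order above were 6, 4, 9, 3, 4, 7, 8, 6, 7 and 9, that is, for TNFα in the 3 genotypes, the 2 differences of responses, the 2 untreated and 2 treated comparisons and the F test. The block ended the call for Tnip1 in untreated Tnfrsf1β-/- libraries (adjusted p = 0.0565). It added those for Tnfaip3 after TNFα (0.0381), the difference of responses of Map3k8 (0.0475) and untreated Tnfaip2 (0.0437), all under the Tnfrsf1α-/- label, and for Traf1 in treated Tnfrsf1β-/- libraries (0.0495). Depth is unknown, so levels near 0 carry no counting limit.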

Other observations

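Among the adhesion genes outside the 10, Alcam, an adhesion molecule of the immunoglobulin superfamily, stood at 9.38 and 9.43 in untreated wild type and 12.1 and 11.5 in treated wild type on the log2(FPKM + 1) scale. It was at 4.22 and 3.89 in untreated and 11.8 and 11.3 in treated Tnfrsf1α-/- libraries, and at 3.98 and 3.89 in untreated and 7.63 and 7.14 in treated Tnfrsf1β-/- libraries. Against untreated wild type its log2 difference was −5.35 (SE 0.28) and −5.47 (SE 0.28) under the 2 labels, with limma adjusted p of 2.74e-06 and 2.32e-06, the opposite direction to Icam1 in the same libraries. Itgb2, the beta subunit of the integrins that bind Icam1, was listed at 0 in all 4 untreated libraries with a knockout label, against 4.78 and 4.20 in untreated wild type. With TNFα it was at 6.60 and 7.09 in wild type, 4.41 and 4.97 under the Tnfrsf1α-/- label and 4.63 and 5.27 under the Tnfrsf1β-/- label.

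In treated libraries 8 of the 12 partners and relatives of A20 and regnase-1 were higher under the Tnfrsf1α-/- label than in wild type and 0 lower, while under the Tnfrsf1β-/- label 0 were higher and 1 lower, Optn, by the same limma fit. Of all genes 22.7% were higher and 22.4% lower in the former comparison, and 14.7% and 36.3% in the latter. The receptor-near kinase gene Map3k7, which encodes TAK1, was listed at 0 in both untreated wild-type libraries and stood at 3.61 to 3.76 in the 4 untreated libraries with a knockout label.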
